A study of Mus musculus with 27 samples.

Results

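Transcripts of 9 transcription factors that set macrophage lineage and polarization were followed through the response of bone marrow-derived macrophages to IL-4, to medium conditioned by malignant peripheral nerve sheath tumor cells and to loss of the mitochondrial chaperone TRAP1. Spi1, Maf, Cebpa, Cebpb, Klf4, Irf4, Irf8, Pparg and Stat6 were taken by gene symbol from a table of 50559 genes. All 9 had enough reads to be among the 13614 genes tested. Macrophages were grown from the bone marrow of age-matched female C57BL/6 mice, either wild-type (WT) or TRAP1-deficient (KO), and were either left unpolarized (M0) or given 10 ng/mL IL-4 over 24 h (M2). Both states of both genotypes were then kept for 48 h in control medium (DMEM) or in MPNST-CM, the conditioned medium (CM) of a murine MPNST line. The 8 resulting groups were WT M0 DMEM, KO M0 DMEM, WT M0 CM, KO M0 CM, WT M2 DMEM, KO M2 DMEM, WT M2 CM and KO M2 CM, with 3 libraries each in batch1. All cells had been differentiated in the same medium, with conditioned medium of L929 fibroblasts as the source of M-CSF. The tumor line came from skin-derived precursors that lack Nf1 and p53. How Trap1 was deleted is not given in the sources used here, and the labels do not say whether IL-4 stayed on the M2 cells during the 48 h.

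PU.1, encoded by Spi1, is the ETS factor without which macrophages do not form, and it opens enhancers together with C/EBP alpha (Cebpa) and C/EBP beta (Cebpb). IL-4 acts through its receptor and JAK kinases on STAT6, which enters the nucleus after phosphorylation and drives alternative activation, with IRF4, PPAR gamma (Pparg) and KLF4 among the factors that take part in it. MAF is high in mature tissue macrophages and acts on genes such as Il10 and those of complement C1q, and IRF8 pairs with PU.1 on genes of antigen presentation and interferon responses. STAT6 and PU.1 are controlled in large part at the protein level, and only transcripts were measured here.

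Batch1 libraries held between 7037684 and 9089792 counts. Trap1, the targeted gene, had 83 to 144 counts in the WT libraries of batch1 and 0 in every KO library of batch1. Xist, the long RNA of the inactive X chromosome, was between 253.6 and 504.1 CPM, the counts scaled to library size, in WT and at most 1.14 CPM in KO libraries of batch1, which goes against the female label of the KO mice. Genotype and Xist status cannot be told apart there. Summed macrophage markers (12 genes) ranged from 10450 to 15300 CPM, while the summed markers of neutrophils, lymphocytes, fibroblasts, Schwann cells and erythroid cells reached at most 20.6 CPM each. The dendritic cell list of 8 genes ranged from 21.6 to 1522 CPM, with Itgax alone at up to 1506. Of its other genes, Zbtb46 was at 2.3 to 10.7 CPM and Ccr7 at up to 10.1 CPM. Xcr1, Clec9a, Cd209a and Dpp4 stayed at or under 2.87 CPM, and Flt3 at or under 0.881 CPM. The summed level of the list moved with IL-4 and with MPNST-CM (1493 to 1522 CPM in WT M2 DMEM, 371 to 402 in WT M2 CM and 75.3 to 91.6 in WT M0 DMEM). Its part in the results below was not tested. Monocyte and progenitor markers (5 genes) were at 365 to 379 CPM in WT M0 DMEM and 117 to 139 in WT M0 CM. The same sum was 192 to 210 CPM in KO M0 DMEM and 352 to 395 in KO M0 CM. Ccr2 alone was at up to 370 CPM, while Kit and Cd34 stayed at or under 5.11 CPM. The part of these markers in the changes of KO M0 cells was not tested. In M2 cells the sum was between 67.7 and 280 CPM. Mast cell markers (4 genes) were between 0 and 4.79 CPM. Of 3 batch2 libraries, the one labelled KO M2 CM replicate 4 was closest to WT M2 DMEM (Spearman's rho across genes 0.983, against 0.949 with its own group) and the one labelled KO M2 DMEM replicate 4 was closest to KO M0 CM (0.97, against 0.914). The results below come from batch1. When all 27 libraries entered the fit by their labels, 43 of 76 calls of the 9 genes were lost, of which 2 (both of Cebpa) also changed sign. How many calls were lost over all genes is not given here. No label ties a library to an animal, so p-values measure the spread between libraries, and in bulk samples fewer cells of a kind and less RNA per cell cannot be told apart.

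The 9 genes differed widely in how much they moved. Irf4 spanned 27.3-fold between its highest and lowest group mean, Maf 14.1-fold, Pparg 13.98-fold and Cebpa 6.12-fold. Klf4 spanned 4.95-fold, Irf8 3.54-fold and Cebpb 3.36-fold. Stat6 (1.52-fold) and Spi1 (1.26-fold) were the steadiest. Irf4, Klf4, Pparg and Spi1 had their highest mean in WT M2 DMEM, the group in which Maf had its lowest. Levels are TMM-scaled CPM from reads near the 3′ end of the transcript, and they are compared here within a gene and not between genes.

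**Figure D1:**
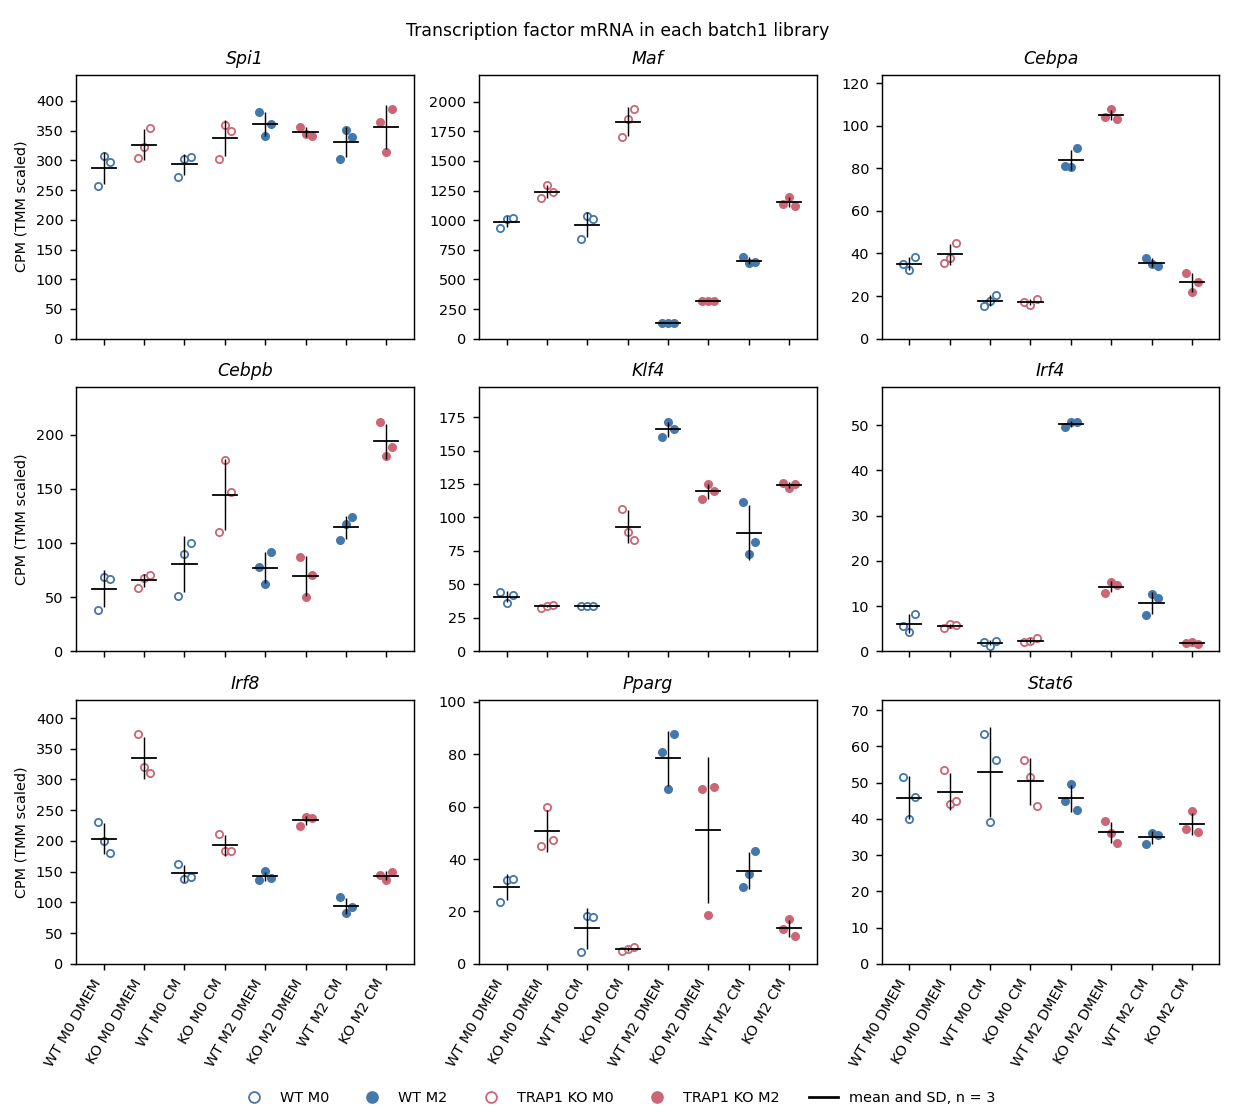
CPM (linear axes that start at 0) of the 9 transcription factor genes in the 24 batch1 libraries, one panel per gene, with points for libraries and bars for the mean and SD of 3 libraries. Irf4 and Maf sit at opposite ends in WT M2 DMEM (50.4 and 130 CPM), while Spi1 stays between 287 and 361 CPM in all 8 group means.

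IL-4 was followed by calls in 4 to 7 of the genes. In WT cells in control medium, 7 of the 9 differed between M2 and M0 (edgeR's quasi-likelihood test, adjusted p below 0.05), against 37.2% of all genes tested. Irf4, Klf4, Pparg, Cebpa and Spi1 rose, 5 genes against 19.1% of all genes in that direction, and Maf and Irf8 fell, 2 genes against 18.1%. In KO cells in control medium 6 differed (28.5% of all genes), with Klf4, Cebpa and Irf4 higher (15.6%) and Maf, Irf8 and Stat6 lower (12.9%). After MPNST-CM, 7 differed in WT (24.9% of all genes), 4 higher (11.9%) and 3 lower (13%). In KO cells after MPNST-CM the number was 4 (11.2% of all genes), with Cebpa and Klf4 higher (6.71%) and Maf and Irf8 lower (4.47%).

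In unpolarized WT cells MPNST-CM changed 3 of the 9 genes (21.2% of all genes), none higher (11.3%, with 0 also at an unadjusted p under 0.05 and with DESeq2), and Cebpa, Irf4 and Irf8 lower (9.96%). In WT M2 cells 7 changed (24.5%), of which Maf alone rose (11.2%) and Cebpa, Klf4, Irf4, Irf8, Pparg and Stat6 fell (13.3%). In KO M0 cells 7 changed (32.9%), with Maf, Cebpb and Klf4 higher (14.8%) and Cebpa, Irf4, Irf8 and Pparg lower (18.1%). In KO M2 cells 6 changed (36.8%), Maf and Cebpb higher (16.7%) and the same 4 genes lower as in KO M0 (20.2%).

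In unpolarized cells in control medium Maf and Irf8 were called between KO and WT (2 of 9, against 16.6% of all genes). Both were higher in KO (8.64%), and none of the 9 was called lower (7.97%, with 1 at an unadjusted p under 0.05 and 0 with DESeq2). After MPNST-CM, 4 differed in M0 cells (38.2%), all of them higher in KO (19.1%), namely Maf, Irf8, Klf4 and Cebpb. None was called lower (19.2%), with 1 at an unadjusted p under 0.05 and 1 with DESeq2 (Pparg, -1.29, adjusted p = 0.0188). In M2 cells in control medium 5 differed (16.4%), Maf, Irf8 and Cebpa higher (8.56%) and Irf4 and Klf4 lower (7.87%). In M2 cells after MPNST-CM 7 differed (34%), Maf, Irf8, Cebpb and Klf4 higher (17.2%) and Irf4, Pparg and Cebpa lower (16.8%). Each group serves in 3 of these comparisons, so that WT M2 DMEM, for instance, is the reference both for the effect of MPNST-CM in WT M2 and for the genotype in M2 DMEM.

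**Figure D2:**
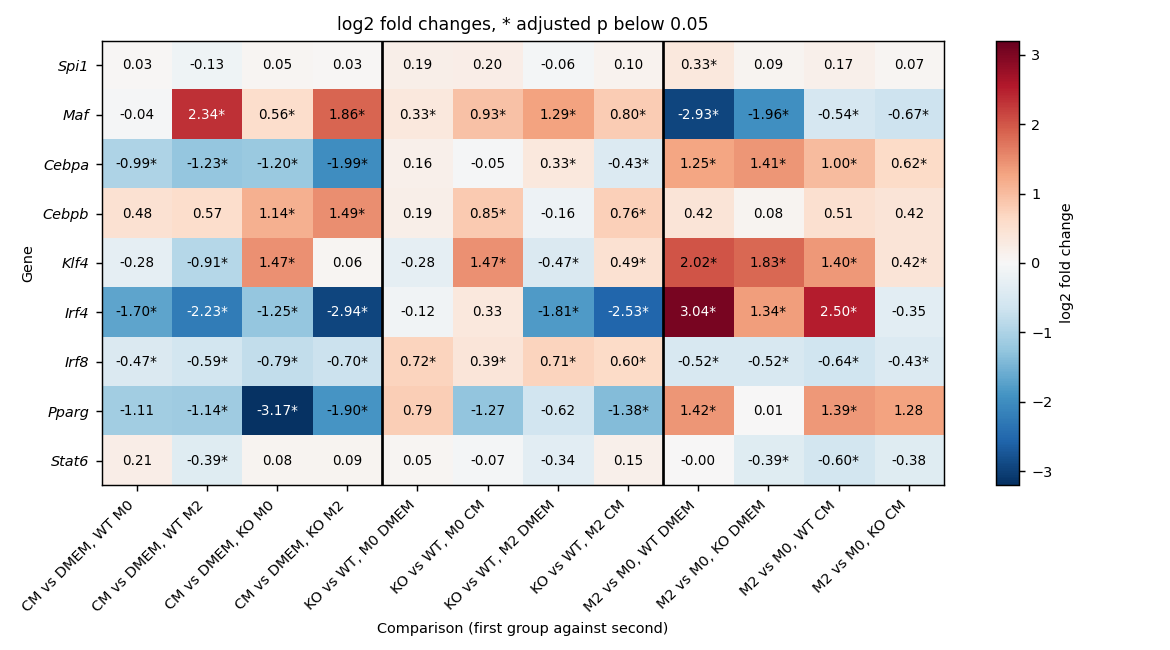
log2 fold changes of the 9 genes (rows) in the 12 comparisons between groups (columns), red for higher and blue for lower in the first group, with an asterisk where the adjusted p was below 0.05. Irf8 carries an asterisk in all 12 columns and Spi1 in 1, and Maf runs from -2.93 (M2 against M0, WT DMEM) to 2.34 (CM against DMEM, WT M2).

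Spi1, the lineage factor PU.1, was nearly level. It was at 257, 307 and 297 CPM in WT M0 DMEM and at 381, 342 and 361 CPM in WT M2 DMEM. The M2 libraries lay above all M0 libraries, and the difference of 0.33 ± 0.0913 (log2 fold change ± SE, adjusted p = 0.00502) was its single call. Without WT M2 DMEM replicate 2 that call was lost (log2 fold change 0.28, adjusted p = 0.0527). MPNST-CM left the 95% interval of the Spi1 response between -0.31 and 0.23 on the log2 scale in the 4 settings, with overlapping libraries each time. KO against WT it differed by between -0.06 and 0.20, none past the threshold, although the value in M0 CM passed it without KO M0 CM replicate 1 (0.27, adjusted p = 0.0282).

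Cebpa, which with PU.1 establishes the myeloid program, rose with IL-4 and fell with MPNST-CM in every setting tested. In WT M0 it was at 34.96, 32.3 and 38.4 CPM in DMEM and at 15.2, 17.9 and 20.3 CPM in MPNST-CM. In WT M2 it was at 81.3, 80.8 and 89.4 CPM in DMEM and 37.8, 35.2 and 33.97 CPM in MPNST-CM. In WT, polarized cells in MPNST-CM overlapped unpolarized cells in control medium. In KO, polarized cells in MPNST-CM lay below unpolarized cells in control medium (35.4 to 45.1 CPM). KO M2 cells had 104, 108 and 103 CPM in DMEM, the highest of all groups, and 30.8, 22.03 and 26.6 CPM in MPNST-CM. The fall was -0.99 ± 0.123 in WT M0, -1.20 ± 0.125 in KO M0, -1.23 ± 0.116 in WT M2 and -1.99 ± 0.119 in KO M2 (highest adjusted p = 1.35e-06). In M2 cells the fall was larger in KO than in WT, by -0.76 ± 0.165 (interaction, adjusted p = 0.00123), whereas in M0 cells the difference between genotypes was -0.22 (95% interval -0.58 to 0.14). KO was above WT in M2 DMEM (0.33 ± 0.112, adjusted p = 0.0457) and below it in M2 CM (-0.43 ± 0.121, adjusted p = 0.0064). The first of these calls was lost in 14 of 24 fits that left out a library and with median-of-ratios scaling (adjusted p = 0.0618), and the second without KO M2 CM replicate 2 (-0.32, adjusted p = 0.0664). The gene Gm45091 is annotated across the bases just before the Cebpa start, and its part in the Cebpa counts was not tested.

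Cebpb, an inducible relative of Cebpa that responds to inflammatory and growth signals, rose with MPNST-CM in KO cells. In KO M0 it went from 58.9, 67.5 and 70.5 CPM in DMEM to 111, 177 and 147 CPM in MPNST-CM. KO M2 cells went from 87.3, 50.4 and 70.2 CPM to 212, 180 and 189 CPM, and neither pair of groups overlapped. The rise was 1.14 ± 0.258 in KO M0 (adjusted p = 0.00192) and 1.49 ± 0.259 in KO M2 (adjusted p = 0.000148). WT values were 38.02, 68.3 and 66.8 CPM in M0 DMEM, against 51.3, 89.7 and 100 CPM in M0 CM, which overlap. WT M2 cells went from 78.0, 62.4 and 91.8 CPM in DMEM to 103, 117 and 124 CPM in MPNST-CM, without overlap. That change was 0.57 ± 0.257 (adjusted p = 0.127, and 0.0102 with those 2 groups alone). The difference between the genotypes in this response did not pass the threshold in M0 (0.66, 95% interval -0.11 to 1.43, adjusted p = 0.243) or M2 (0.92, interval 0.16 to 1.68, adjusted p = 0.0859, and 0.0389 with DESeq2). After MPNST-CM, KO was above WT by 0.85 ± 0.255 in M0 and 0.76 ± 0.252 in M2. The call in M0 was lost without WT M0 CM replicate 1 (0.60, adjusted p = 0.0717) or KO M0 CM replicate 2 (0.68, adjusted p = 0.0717), and the one in M2 in 6 of 24 such fits. Between M2 and M0 cells Cebpb had no call in any of the 4 settings. In DMEM the libraries overlapped in both genotypes. In MPNST-CM the M2 libraries lay above the M0 libraries in WT (0.51, 95% interval -0.03 to 1.05) and in KO (0.42, interval -0.11 to 0.95). The gene Tmem189 is annotated across the bases just before the Cebpb start and had 266 to 879 counts per library. Its part in the Cebpb counts was not tested.

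Stat6, the factor that IL-4 activates directly, did not follow IL-4 at the transcript level in WT cells in control medium. It was at 51.6, 39.9 and 46.02 CPM in M0 and 44.9, 49.7 and 42.4 CPM in M2, a log2 difference of -0.00 with a 95% interval of -0.29 to 0.28. In WT CM it was lower in M2 (32.9, 36.2 and 35.5 CPM) than in M0 (63.3, 39.1 and 56.3 CPM), by -0.60 ± 0.139 (adjusted p = 0.00183). That call was lost when only those 2 groups were fitted (adjusted p = 0.0506). Stat6 also fell with MPNST-CM in WT M2 (-0.39 ± 0.141, adjusted p = 0.0435) and was lower in M2 than M0 in KO DMEM (-0.39 ± 0.141, adjusted p = 0.0368). Both calls were lost with DESeq2 (adjusted p = 0.0764 and 0.0597), and they were lost in 12 and 4 of the 24 fits without a library. No genotype comparison of Stat6 passed the threshold in the fit of 8 groups. The KO value in M2 DMEM (-0.34, adjusted p = 0.108) passed it with those 2 groups alone (-0.35, adjusted p = 0.0246) and with the replicate block described below (-0.45, adjusted p = 0.0317). The interaction of genotype and medium in M2 (0.48, adjusted p = 0.0917) passed it with the compared groups alone (0.45, adjusted p = 0.0435), with that block (0.59, adjusted p = 0.025) and without WT M0 CM replicate 2 (0.48, adjusted p = 0.0405). In the annotation, the 3′ end of Stat6 touches that of Nab2, a gene on the opposite strand with 30 to 94 counts per library, and the strand setting of the counting was not given in the sources used here.

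Irf4, which IL-4 induces and which carries part of the alternative activation program, showed the widest range. In WT M2 DMEM the 3 libraries were at 49.6, 50.8 and 50.7 CPM, and in WT M0 DMEM at 5.64, 4.30 and 8.32 CPM. KO M2 DMEM libraries had 12.9, 15.4 and 14.6 CPM and KO M0 DMEM libraries 5.13, 6.02 and 5.79 CPM. WT and KO libraries overlapped in M0 and stood apart in M2. The rise with IL-4 was 3.04 ± 0.192 in WT (8.20-fold, adjusted p = 8.07e-13) and 1.34 ± 0.203 in KO (2.54-fold, adjusted p = 8.15e-06), a difference of -1.69 ± 0.28 (interaction, adjusted p = 0.000174).

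MPNST-CM lowered Irf4 in all 4 settings. WT M2 cells in MPNST-CM had 7.92, 12.6 and 11.7 CPM, and KO M2 cells 1.85, 2.03 and 1.65 CPM, the lowest mean of the 8 groups. The fall was -2.23 ± 0.182 in WT M2 and -2.94 ± 0.237 in KO M2 (7.69-fold, adjusted p = 9.28e-11), and the difference between them was -0.71 (95% interval -1.34 to -0.09, adjusted p = 0.103, and -0.95 with 0.0231 without WT M2 CM replicate 1). In M0 cells MPNST-CM left 1.27 to 2.26 CPM in WT and 1.997 to 2.93 CPM in KO, from 11 to 23 counts per library. In MPNST-CM, KO M2 cells were not shown to differ from KO M0 cells (-0.35, 95% interval -0.96 to 0.25, adjusted p = 0.565), whereas WT M2 cells stood above WT M0 cells (2.50 ± 0.236, adjusted p = 5.08e-09). Against WT, KO was lower by -1.81 ± 0.178 in M2 DMEM (adjusted p = 3.41e-08) and -2.53 ± 0.241 in M2 CM (adjusted p = 3.65e-09).

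Promoter sequences of 7 of the 9 genes were matched by symbol in RefSeq (GRCm38.p6), as 10 windows from 250 bases before to 50 after a transcription start. Spi1 and Maf had no entry. Short motifs were searched on both strands, that of PU.1 (GAGGAA), C/EBP (TTGCNNAA), STAT6 (TTCNNNNGAA) and the interferon response element (GAAANNGAAA). These letters occur in 28.3%, 10.8%, 6.95% and 3.44% of all 32851 windows. No window of the 7 genes held the STAT6 or interferon motif. PU.1 letters were found at 1 place for Irf4, 2 adjacent places for Stat6 and 1 place in a window of Pparg, and C/EBP letters at 2 places in another window of Pparg. Irf4 and Pparg, which had matches, were highest in WT M2 DMEM and were lower in MPNST-CM, are shown with the 250 bases before a start, on the plus strand and with the matches in capitals. The Irf4 stretch lies at chr13:30748983-30749232, and its end reaches into the first Irf4 exon as GENCODE annotates it. The PU.1 letters there read on the minus strand from position -19, counted from the start. The Pparg stretch lies at chr6:115421816-115422065, inside the gene and outside its annotated exons, with C/EBP letters from position -215 on the plus strand and -16 on the minus strand. A match is a run of letters and not a measured binding site.
Irf4: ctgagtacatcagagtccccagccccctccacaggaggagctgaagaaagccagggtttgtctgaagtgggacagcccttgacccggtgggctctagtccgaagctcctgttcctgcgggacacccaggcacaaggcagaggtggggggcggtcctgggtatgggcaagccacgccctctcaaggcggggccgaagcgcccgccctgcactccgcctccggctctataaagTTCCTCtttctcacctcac
Pparg: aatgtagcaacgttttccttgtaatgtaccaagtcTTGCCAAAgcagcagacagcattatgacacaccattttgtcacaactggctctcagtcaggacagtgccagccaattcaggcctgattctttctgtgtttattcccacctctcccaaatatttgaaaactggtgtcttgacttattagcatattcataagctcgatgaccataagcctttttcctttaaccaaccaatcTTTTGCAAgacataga

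Pparg, the fatty acid-sensing nuclear receptor of alternatively activated macrophages, shared this pattern with a larger spread. It was at 80.8, 66.8 and 87.6 CPM in WT M2 DMEM and 23.7, 31.9 and 32.3 CPM in WT M0 DMEM, a rise of 1.42 ± 0.406 (adjusted p = 0.0104). KO M2 DMEM held 66.8, 18.8 and 67.6 CPM, against 44.9, 59.8 and 47.1 CPM in KO M0 DMEM. Replicate 2 of the former, with 140 counts, lay below the other 5 libraries, and the change with IL-4 did not pass the threshold (0.01, 95% interval -0.83 to 0.85). In M0 DMEM all KO libraries lay above the WT libraries (0.79 ± 0.407). That difference did not pass the threshold (adjusted p = 0.232), except with those 2 groups alone (0.74, adjusted p = 0.00419). In MPNST-CM, WT M2 cells were above WT M0 cells by 1.39 ± 0.435 (adjusted p = 0.0263), a call lost with those 2 groups alone (adjusted p = 0.124) and in 3 of 24 fits without a library, among them the one without WT M0 CM replicate 1 (0.98, adjusted p = 0.0996).

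The largest single response to MPNST-CM among the 9 genes was that of Pparg in KO M0 cells, where it dropped to 4.74, 5.60 and 6.50 CPM (-3.17 ± 0.487, 9-fold, adjusted p = 5.15e-05). In WT M0 cells it was at 4.40, 18.3 and 17.8 CPM, of which replicate 1 had 38 counts, and the fall of -1.11 ± 0.438 did not pass the threshold (adjusted p = 0.0853, and 0.0285 without KO M2 DMEM replicate 2). The response of KO exceeded that of WT in M0 by -2.06 ± 0.659 (adjusted p = 0.0355), a call that was lost without the filter on low counts (adjusted p = 0.0735) and in 10 of 24 fits without a library. In M2 cells the change was -1.90 ± 0.437 in KO (adjusted p = 0.00214, and 0.0783 with those 2 groups alone) and -1.14 ± 0.401 in WT (adjusted p = 0.0474). The call in WT M2 was lost in 21 of the 24 fits and with DESeq2 (adjusted p = 0.0543). After MPNST-CM, KO M2 cells (13.2, 17.1 and 10.5 CPM) were below WT M2 cells (29.3, 34.4 and 43.03 CPM), by -1.38 ± 0.439 (adjusted p = 0.0217). That call was lost without KO M2 CM replicate 1 (-1.36, adjusted p = 0.0622), KO M2 CM replicate 3 (-1.23, adjusted p = 0.0822) or WT M2 CM replicate 3 (-1.22, adjusted p = 0.0753).

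Klf4, a zinc finger factor that cooperates with STAT6 in alternative activation, rose with IL-4 in all 4 settings, while its response to MPNST-CM ran from a fall in WT M2 to a rise in KO M0. WT M2 DMEM libraries had 160, 172 and 166 CPM, and WT M0 DMEM libraries 44.3, 36.4 and 41.9 CPM (2.02 ± 0.118, adjusted p = 1.48e-13). In WT M2 cells MPNST-CM brought it to 112, 72.5 and 81.5 CPM (-0.91 ± 0.113, adjusted p = 5.83e-07). KO M2 cells stood at 114, 125 and 120 CPM in DMEM and 126, 122 and 125 CPM in MPNST-CM, a change of 0.06 with a 95% interval of -0.17 to 0.29. In unpolarized KO cells Klf4 rose from 32.6, 33.8 and 34.5 CPM to 107, 89.4 and 82.9 CPM (1.47 ± 0.119, adjusted p = 1.19e-10), while WT M0 cells in MPNST-CM were at 33.5, 33.5 and 33.6 CPM (-0.28 ± 0.12, adjusted p = 0.0962). The responses of the genotypes differed by 1.75 ± 0.168 in M0 (adjusted p = 1e-08) and by 0.96 ± 0.159 in M2 (adjusted p = 5e-05). KO was below WT in M2 DMEM (-0.47 ± 0.112) and above it in M2 CM (0.49 ± 0.113) and M0 CM (1.47 ± 0.118). The rise with IL-4 in KO CM was the smallest of the 4 (0.42 ± 0.112, adjusted p = 0.0139), and it was lost without KO M0 CM replicate 2 (0.39, adjusted p = 0.0639) or replicate 3 (0.34, adjusted p = 0.0941).

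Maf moved against Irf4. It was at 933, 1014 and 1019 CPM in WT M0 DMEM and at 129, 130 and 132 CPM in WT M2 DMEM, a fall of -2.93 ± 0.0807 (7.60-fold, adjusted p = 3.44e-20). MPNST-CM raised it in WT M2 to 690, 641 and 647 CPM (2.34 ± 0.0791, 5.07-fold, adjusted p = 9.33e-18), still below every WT M0 library. In WT M0 cells the same medium left 843, 1032 and 1010 CPM, a change of -0.04 (95% interval -0.19 to 0.11). The response to MPNST-CM differed between M2 and M0 in WT, by 2.38 ± 0.107 (adjusted p = 2.73e-14), the largest interaction among the 9 genes.

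KO cells had more Maf than WT cells in all 4 settings, and no pair of groups overlapped. In M0 DMEM they had 1186, 1299 and 1235 CPM (0.33 ± 0.0743 above WT, adjusted p = 0.00225), and in M0 CM 1701, 1854 and 1939 CPM (0.93 ± 0.0748, adjusted p = 1.18e-10). In M2 DMEM they had 317, 319 and 318 CPM (1.29 ± 0.0772, adjusted p = 5.88e-12), and in M2 CM 1136, 1198 and 1120 CPM (0.80 ± 0.0748, adjusted p = 2.37e-09). IL-4 lowered Maf by -1.96 ± 0.0773 in KO DMEM, 0.96 ± 0.107 less than in WT (adjusted p = 5.9e-07). MPNST-CM raised it in KO M0 by 0.56 ± 0.0744, 0.60 ± 0.105 more than in WT M0 (adjusted p = 9.98e-05), and in KO M2 by 1.86 ± 0.077, or -0.49 ± 0.106 against WT M2 (adjusted p = 0.00141). KO M2 cells in MPNST-CM overlapped KO M0 cells in control medium. In batch2, which was not in this fit, the library labelled KO M2 DMEM replicate 4 had 1155 CPM of Maf, 5.91 of Irf4 and 29.4 of Cebpa, and the one labelled KO M2 CM replicate 4 had 404, 23.7 and 93.0 CPM.

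Irf8, the factor of monocyte identity and interferon responses, had a call in each of the 12 comparisons between groups. In M0 DMEM it was at 230, 200 and 181 CPM in WT and at 374, 320 and 310 CPM in KO (0.72 ± 0.102, adjusted p = 8.1e-06). M2 DMEM libraries had 136, 151 and 140 CPM in WT and 224, 238 and 237 CPM in KO (0.71 ± 0.103, adjusted p = 1.49e-05). KO libraries were above WT libraries in both states, without overlap. MPNST-CM lowered Irf8 by -0.47 ± 0.102 in WT M0, -0.59 ± 0.104 in WT M2, -0.79 ± 0.102 in KO M0 and -0.70 ± 0.103 in KO M2. IL-4 lowered it by between -0.64 and -0.43 in the 4 settings. Under MPNST-CM the excess in KO was 0.39 ± 0.102 in M0 and 0.60 ± 0.104 in M2. The interval of the genotype difference in the IL-4 response in DMEM was -0.30 to 0.29, and that in the response of M0 cells to MPNST-CM was -0.62 to -0.03. The last value (-0.33, adjusted p = 0.118) passed the threshold without WT M0 DMEM replicate 1 (-0.42, adjusted p = 0.0418), and no other interaction of Irf8 did in the 24 fits without a library. The gene Gm20388 is annotated across the bases before both Irf8 starts, and its part in the Irf8 counts was not tested.

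Beyond single genes, the interaction tests called 3 of the 9 for genotype and medium in M0 (Maf, Klf4 and Pparg, against 19.7% of all genes) and 3 in M2 (Maf, Klf4 and Cebpa, against 20.2%). For genotype and IL-4 in control medium they called Maf and Irf4 (2 of 9, against 7.08%). For IL-4 and medium in WT they called Maf, Klf4 and Stat6 (3 of 9, against 12.1%). The Klf4 value in the last test was -0.62 ± 0.164 (adjusted p = 0.0118, and 0.0908 with those 4 groups alone). Its Stat6 value of -0.60 ± 0.196 (adjusted p = 0.0466) was lost in 19 of 24 fits without a library.

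**Figure D3:**
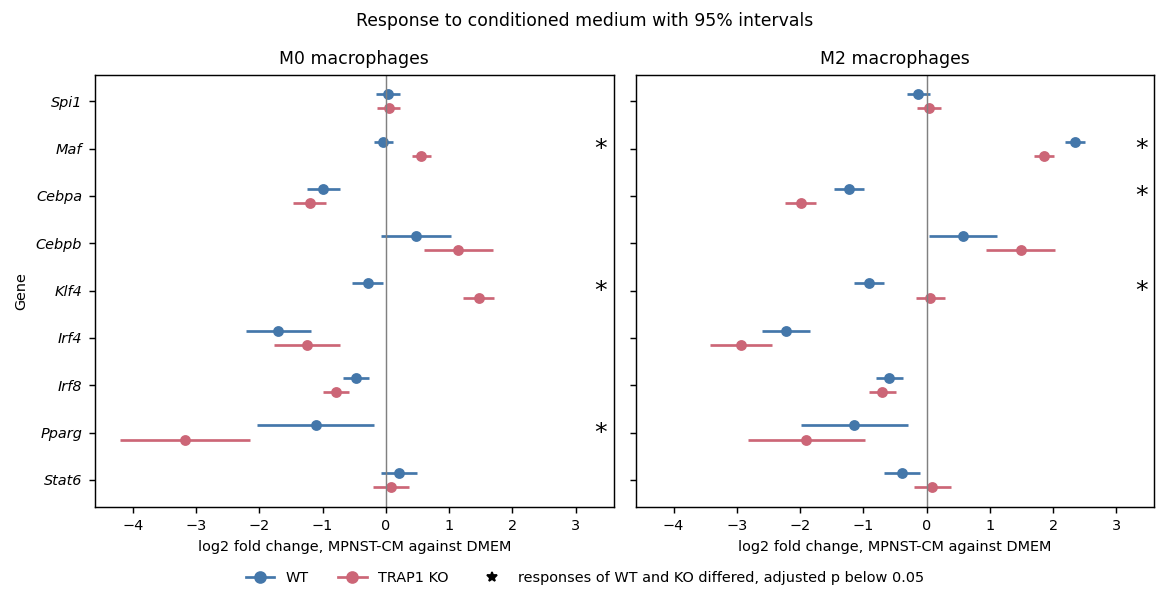
log2 fold change between MPNST-CM and DMEM (horizontal axis) of the 9 genes in WT and TRAP1 KO, for M0 (left) and M2 cells (right), with lines for 95% intervals and an asterisk where the responses of the genotypes differed (adjusted p below 0.05). In M0 the Klf4 points lie at -0.28 and 1.47, and in M2 the Cebpa points lie at -1.23 and -1.99.

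Across the 24 libraries, Maf and Irf4 ran in opposite directions (Pearson r of log2 CPM -0.891), as did Maf and Cebpa (-0.829). Cebpa and Irf4 (0.858), Cebpa and Pparg (0.795) and Irf4 and Pparg (0.781) ran together. These values describe 8 groups of 3 libraries that share their treatments. Genes most like a member by the same measure were Slc9a9 (0.977), Rtp4 (0.972) and Gng2 (0.966) for Maf, Ephx1 (0.971), Daglb (0.966) and Trem2 (0.96) for Cebpa, and Il1rl1 (0.951), Syngr2 (0.938) and Anxa4 (0.936) for Irf4. Il1rl1 encodes the receptor of IL-33, and Trem2 a lipid-sensing receptor of tissue macrophages. For Irf8 they were Iqgap2 (0.948), Apoe (0.943) and Slc43a2 (0.938), for Pparg Kcnj2 (0.945), Pdgfb (0.927) and Cadm1 (0.903), and for Klf4 Clcn3 (0.954), Ptgir (0.939) and Cd300ld (0.933). Cebpb was most like Rbms1 (0.943), Acsl4 (0.939) and Mcfd2 (0.935). For the 2 steady genes the values were lower, with Spcs2 (0.842), Slc31a2 (0.84) and Ahcyl2 (0.824) for Spi1, and Rplp2 (0.914), Rpl41 (0.89) and Gm10076 (0.878) for Stat6. Rplp2 and Rpl41 encode ribosomal proteins.

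**Figure D4:**
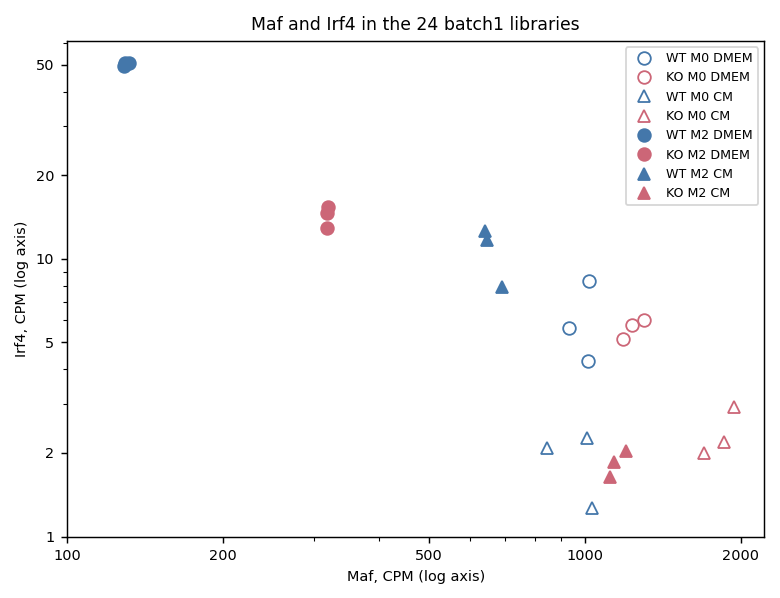
Maf (horizontal) against Irf4 (vertical) in CPM on log axes, one point per batch1 library, blue for WT and red for TRAP1 KO, open for M0 and filled for M2, circles for DMEM and triangles for CM. WT M2 DMEM libraries lie alone at 129 to 132 CPM of Maf and 49.6 to 50.8 CPM of Irf4, and KO M2 CM libraries at 1120 to 1198 and 1.65 to 2.03 CPM.

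Genes of IL-4 receptor and JAK-STAT6 signaling, carriers of the signal as well as its inhibitors, were described by a list of 17, all tested. Between M2 and M0 in WT DMEM 7 were higher and 3 lower (19.1% and 18.1% of all genes tested), with a median log2 fold change of 0.19 (-0.03 over all genes tested). The feedback inhibitors of JAK kinases led it, with Socs2 at 5.25 ± 0.328, Cish at 4.24 ± 0.284 and Socs1 at 2.80 ± 0.269. In KO M2 DMEM cells none of the 17 was called above WT (8.56% of all genes; 1 at an unadjusted p under 0.05, 0 with DESeq2) and 6 were below (7.87%), with a median of -0.14 against 0.02 over all genes. Socs1 was at 1.84 CPM in KO against 27.4 in WT (-3.90 ± 0.307, adjusted p = 8.36e-10), Cish at 2.80 against 28.5 (-3.33 ± 0.264) and Jak2 at 42.3 against 67.6 (-0.68 ± 0.11). Il4ra, the receptor chain that binds IL-4, rose with MPNST-CM in WT M0 (1.03 ± 0.111), WT M2 (0.68 ± 0.113), KO M0 (1.83 ± 0.113) and KO M2 (1.34 ± 0.113). Socs3, an inhibitor induced by IL-6 type cytokines, rose with MPNST-CM in all 4 settings, from 1.37 ± 0.228 in WT M0 to 3.09 ± 0.273 in KO M2.

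Of 18 genes known as targets of IL-4 and STAT6, 16 were higher (19.1% of all genes) and 0 lower (18.1%; 0 also at an unadjusted p under 0.05 and with DESeq2) in M2 than M0 in WT DMEM, with a median of 5.89 (-0.03 over all genes). Retnla stood at 1672 CPM against 0.484 and Chil3 at 286 against 1.08, and both are markers of IL-4 treated macrophages. In KO DMEM 15 were higher (15.6%) and 2 lower (12.9%) in M2 (median 3.41). Ccl17 had 0 counts in every M0 DMEM library, and with it set at a bound of 3 counts over the group the medians were 5.69 in WT and 2.97 in KO. Among M2 cells in DMEM, 13 were lower (7.87%) and 2 higher (8.56%) in KO than in WT (median -1.10, against 0.02). Arg1, which breaks down arginine, was at 4.89 CPM against 92.0 (-4.24 ± 0.25, adjusted p = 2.24e-10), and the lectin gene Mgl2 at 69.7 against 342 (-2.30 ± 0.134), while Retnla (1896 CPM in KO, 1.52 without IL-4) and Chil3 (289 CPM, 0.48 without) still rose in KO. MPNST-CM lowered 9 (13.3%) and raised 6 (11.2%) in WT M2 (median -0.92), and lowered 11 (20.2%) and raised 5 (16.7%) in KO M2 (median -1.19). Among those it raised was Arg1, by 2.78 ± 0.196 in WT M2 (92.0 to 632 CPM) and 5.55 ± 0.252 in KO M2 (4.89 to 228 CPM). The level reached in KO M2 was thus below that in WT M2. Fn1 (-3.18 ± 0.2 and -5.06 ± 0.218) and Flt1 (-2.50 ± 0.114 and -3.93 ± 0.134) fell in both.

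Targets of MAF, 10 of them tested, are given beside Maf. In WT DMEM 9 were lower (18.1% of all genes) and none higher (19.1%; 0 also at an unadjusted p under 0.05 and with DESeq2) in M2 than M0 (median -1.18), among them the complement gene C1qa (-0.96 ± 0.117) and the scavenger receptor Stab1 (-2.41 ± 0.19). MPNST-CM raised 7 (11.2%) and lowered none (13.3%; 0 by the same other counts) in WT M2 (median 0.58), with Stab1 at 1.88 ± 0.194 and C1qa at 1.20 ± 0.117. In KO cells, where Maf also rose, the targets went both ways, with 4 raised and 3 lowered in M0 (14.8% and 18.1%, median -0.03) and 4 raised and 2 lowered in M2 (16.7% and 20.2%, median 0.20). In WT M0, where Maf was not called, 2 were raised and 3 lowered (11.3% and 9.96%). KO against WT, 6 were higher and 1 lower in M0 DMEM (8.64% and 7.97%, median 0.73) and likewise 6 and 1 in M2 DMEM (8.56% and 7.87%, median 0.77). In M0 CM 5 were higher and 1 lower (19.1% and 19.2%), and in M2 CM 4 and 1 (17.2% and 16.8%). C1qb was at 1005 CPM in KO and 525 in WT in M0 DMEM (0.94 ± 0.1), and F13a1, the factor XIII subunit, was the one that was lower (27.4 against 76.7 CPM, -1.48 ± 0.121).

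Genes of IRF8 and interferon responses (16 tested) did not move as one group. In M0 DMEM 12 were higher (8.64% of all genes) and 0 lower (7.97%; 0 also at an unadjusted p under 0.05 and with DESeq2) in KO than WT (median 0.83, against 0.03), including Gbp2 (1.31 ± 0.0949) and Cd74 (0.94 ± 0.106), the invariant chain of MHC class II. MPNST-CM lowered 10 (9.96%) and raised none (11.3%; 1 at an unadjusted p under 0.05, 0 with DESeq2) in WT M0 (median -0.61) and lowered 12 (18.1%) and raised 2 (14.8%) in KO M0 (median -1.44). Ciita, the master regulator of MHC class II genes, fell in all 4 settings, from -2.09 ± 0.215 in WT M0 to -3.96 ± 0.19 in KO M2. In KO M2 cells 7 were lowered (20.2%) and 6 raised (16.7%), and those that rose included the interferon-induced Ifit1 (3.35 ± 0.258), Ifit3 (3.02 ± 0.109) and Isg15 (3.87 ± 0.271). IL-4 in WT DMEM also moved the list both ways, 8 higher (19.1%) and 6 lower (18.1%), with Cd74 (3.44 ± 0.115) and H2-Ab1 (3.08 ± 0.0862) higher and Ifit3 (-4.04 ± 0.117) and Ifit1 (-3.40 ± 0.262) lower.

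Of 11 tested targets of PPAR gamma and its partner RXR, 8 were higher and 1 lower in M2 than M0 in WT DMEM (19.1% and 18.1% of all genes, median 0.63), and likewise 8 and 1 in KO DMEM (15.6% and 12.9%, median 0.91). Cd36, a receptor for oxidized lipids, rose by 3.15 ± 0.114 in WT and by 2.98 ± 0.114 in KO, where Pparg itself was not called. With MPNST-CM in KO M0, 2 of the 11 were higher (14.8%) and 4 lower (18.1%), with a median of 0.01. Fabp4, a carrier of fatty acids, fell there (90.7 to 9.62 CPM, -3.23 ± 0.157), as did the lipase gene Lpl (-3.40 ± 0.084), while Hilpda, which is also induced by low oxygen, rose (3.63 ± 0.132). In WT M0, Fabp4 rose with MPNST-CM (0.72 ± 0.146, adjusted p = 0.000666). In M0 DMEM 4 were higher (8.64%) and 0 lower (7.97%; 1 at an unadjusted p under 0.05, 0 with DESeq2) in KO than WT, with the cholesterol exporters Abcg1 (1.69 ± 0.232) and Abca1 (1.48 ± 0.125) among them.

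Of 16 tested targets of PU.1 and C/EBP, 9 were higher (19.1% of all genes) and 3 lower (18.1%) in M2 than M0 in WT DMEM (median 0.30). The integrin gene Itgb2 (2.13 ± 0.0852) and Csf2ra (1.44 ± 0.163), a chain of the GM-CSF receptor, rose, and Fcgr1 (-2.89 ± 0.0907) and Cd14 (-1.60 ± 0.158) fell. MPNST-CM raised Il1b in all 4 settings, by 1.39 ± 0.181 in WT M0 and 3.47 ± 0.18 in KO M0, and lowered the G-CSF receptor gene Csf3r in all 4, by -1.66 ± 0.241 in WT M0 and -1.78 ± 0.224 in KO M0.

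Among 52 other transcription factors and partners that were tested, 20 were higher (19.1% of all genes) and 12 lower (18.1%) in M2 than M0 in WT DMEM (median 0.09, against -0.03). Those with the largest changes were Batf3 (3.53 ± 0.253), Bhlhe40 (3.47 ± 0.158), Egr2 (3.11 ± 0.129) and Irf7 (-2.97 ± 0.115). In KO M2 DMEM cells 15 were below (7.87%) and 2 above WT (8.56%), including the AP-1 members Fos (-1.33 ± 0.169) and Fosl2 (-1.27 ± 0.0969). After MPNST-CM, 22 were above (17.2%) and 9 below WT (16.8%) in KO M2 cells, where Irf7 was at 236 CPM against 30.3 (2.96 ± 0.109) and Egr2 at 25.5 against 120 (-2.23 ± 0.128). Crem, a factor of the cAMP response, rose with MPNST-CM in all 4 settings, by 1.05 ± 0.152 in WT M0, 1.72 ± 0.147 in WT M2, 3.16 ± 0.155 in KO M0 and 3.11 ± 0.152 in KO M2.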

How the data were processed

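RNA of bone marrow-derived macrophages was sequenced by QuantSeq 3′ FWD. The authors trimmed reads with Trimmomatic, mapped them with HISAT2, filtered alignments by mapping quality with SAMtools and counted genes with featureCounts, and they deposited raw counts without normalization. Versions, annotation and strand setting are not given in the sources used here. The labels name mm39 and the methods mm10. Another 5 columns of the table could not be tied to a sample by name and were left out. The 24 batch1 libraries, grouped by their labels, had a median total of 7872887 counts. Counts were tested with edgeR 4.0.16 (R 4.3.3, limma 3.58.1) with TMM factors, its filter by group and a robust quasi-likelihood fit of 8 group means, with Benjamini-Hochberg adjustment over 13614 genes at 0.05. SE is the absolute log2 fold change over the root of F. CPM uses the same factors. The fit was tested on simulated data. Alternatives were median-of-ratios (RLE) factors, DESeq2 1.42.0, no filter, compared groups alone, a replicate block, 27 libraries with and without a batch term, and leaving out each library. Replicates of a group differed beyond counting noise (chi-square per degree of freedom 2.11 to 37.4 over 24 pairs).

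Members and lists were chosen with earlier results of these data known. Of each list and comparison between groups, up to 4 called genes with the largest change and at least 10 CPM could be named (Il4ra in WT M2, Retnla and Chil3 in KO and repeats of a gene in other settings were added after their values were seen), and for each member the 3 genes most alike over 24 libraries among genes of at least 10 CPM. Of the listed genes, Cebpe, Gfi1, Spib, Pdk4, Tlr9, Il6 and Timd4 had too few counts to be tested.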

Additional observations from a re-analysis of the deposited data

Results flagged for a closer look

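With batch2 included, 27 sets of 4 libraries of a group (9 genes in the 3 groups that have a batch2 library) were screened for 1 library far from the other 3, and chance alone marks about 1 in 20 of them. The screen marked 7, of which 6 were in the KO libraries of batch2. Genes of the same library are not independent, so the marks cannot be set against that rate as separate draws. The library labelled KO M2 DMEM replicate 4 stood apart in Maf (1155 CPM, the others 313.3 to 315.2) and Cebpa (29.43 CPM, the others 102 to 106.8). The one labelled KO M2 CM replicate 4 stood apart in Maf (403.9 CPM, the others 1116 to 1190), Cebpa (92.97 CPM, the others 21.89 to 30.77), Irf4 (23.66 CPM, the others 1.64 to 2.021) and Pparg (92.25 CPM, the others 10.47 to 16.95). In batch1, WT M0 DMEM replicate 1 had 37.99 CPM of Cebpb against 67.31 to 68.78 in the others. CPM here was scaled over 27 libraries and so differs slightly from the values above. In both KO libraries of batch2 Xist was at 306 and 408.5 CPM, a level not seen in any KO library of batch1, and Trap1 had 0 and 2 counts.

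The effect of 1 condition differed between groups in 11 of 36 interaction tests. In M0 cells the response to MPNST-CM differed by genotype for Maf (0.60), Klf4 (1.75) and Pparg (-2.06), against 19.7% of all genes. These are differences of log2 fold changes, KO minus WT. In M2 cells it differed for Maf (-0.49), Cebpa (-0.76) and Klf4 (0.96), against 20.2%. The response to IL-4 in control medium differed for Maf (0.96) and Irf4 (-1.69), against 7.08%. Between M2 and M0 cells of WT, the response to MPNST-CM differed for Maf (2.38), Klf4 (-0.62) and Stat6 (-0.60), against 12.1%. The Pparg and Stat6 calls were lost in 10 and 19 of the 24 fits without a library. The last Klf4 call was lost with the compared groups alone.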

How the results depend on the processing

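Of 144 results (9 genes in 16 comparisons), 76 were called, and 63 of those calls were kept in all 24 fits that left out 1 library. Calls lost and gained were 4 and 0 with RLE factors, 3 and 2 with DESeq2, 5 and 1 without the filter on low counts, and 6 and 7 with the compared groups alone, and no called value changed sign under these. The compared groups alone gave 5 called genes in place of 3 for genotype and medium in M2, and 1 in place of 3 for IL-4 and medium in WT. The cause was not tested.

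With the replicate block, 3 calls were lost and 5 gained. In batch1 the number 4 belongs to a WT M2 DMEM library alone, and the block takes that library out of its group mean. Under the block, comparisons with WT M2 DMEM therefore rest on its replicates 2 and 3, and their shifts cannot be read as an effect of pairing. Pparg lost its call for MPNST-CM in WT M2 (-0.98, adjusted p = 0.16), for IL-4 in WT DMEM (1.25, adjusted p = 0.0524) and for genotype and medium in M0 (-2.04, adjusted p = 0.0559). Gained were Spi1 (KO against WT in M0 CM, 0.20, adjusted p = 0.0446), Irf8 (genotype and medium in M0, -0.33, adjusted p = 0.0387) and Stat6 (KO against WT in M2 DMEM, -0.45, adjusted p = 0.0317, IL-4 in KO CM, -0.37, adjusted p = 0.0405, and genotype and medium in M2, 0.59, adjusted p = 0.025). Over 77 pairs of libraries with the same number the mean r of deviations was 0.107 (34 over 0.1), against -0.0451 over 175 other pairs. No label says what a number shares and not every pair was over 0.1, so the numbers were not read as pairs.

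With all 27 libraries, 43 calls were lost without a batch term and 41 with one. The number of called genes then fell in the same way under both. For MPNST-CM it was 1 in WT M0, 4 in WT M2, 3 in KO M0 and 1 in KO M2. For genotype it was 1 in M0 DMEM, 2 in M0 CM and 2 in M2 CM, and for IL-4 3 in KO DMEM, 4 in WT CM and 0 in KO CM (edgeR, 7 at an unadjusted p under 0.05 without a batch term and 6 with one). For interactions it was 1 (genotype and medium, M0), 1 (the same, M2) and 0 (genotype and IL-4, 2 at an unadjusted p under 0.05), and 1 for IL-4 and medium in WT without a batch term. Cebpa changed sign with no call (adjusted p from 0.766 to 0.985), with KO against WT in M2 CM at 0.23 (0.05 with a batch term) and its interaction with medium in M2 at 0.22 (0.07), and KO against WT in M2 DMEM was -0.02 with a batch term. Of the 3 genes most like a member, at most 1 was kept by group means, and by Spearman's rho 2 were kept for Irf8 and Stat6, 1 for Cebpb and Pparg and 0 for the others. TMM factors against RLE moved the median of all genes by less than 0.05.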
